A study of Mus musculus with 4 samples.

Results

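The C/EBP transcription factors form a family of 6 genes in the deposited files, *Cebpa*, *Cebpb*, *Cebpd*, *Cebpe*, *Cebpg* and *Ddit3*, among 24322 genes listed. They were chosen by name, with their values in the present comparison already known. Their difference between control and *Rax* iCKO cells is therefore given as a description, with no p-value. In the *Rax* iCKO libraries the RNA of *Cebpd* was at 0.385 of the control mean, that of *Cebpb* was at 0.498 with a wide spread, and the RNAs of *Cebpg* and *Ddit3* were at 1.12 and 1.21 of it. *Cebpa* was close to 0 and *Cebpe* was listed at 0 in every library.

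C/EBP proteins have a basic region that contacts DNA and a leucine zipper through which they pair with each other and with other bZIP factors such as ATF4 and the AP-1 proteins. C/EBPβ and C/EBPδ are induced by cytokines, in part through STAT3, and drive acute phase and inflammatory genes in liver, macrophages and glia. C/EBPα and C/EBPε act in fat, liver and myeloid cell differentiation, C/EBPγ lacks an activation domain of its own, and CHOP, the product of *Ddit3*, is a stress-induced member that pairs with the others and redirects or blocks them.

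The cells were mTFP-positive cells sorted by FACS from papain-dissociated retinas, with 1 library per mouse. All mice, given as 129S6 in the labels, carried *Rlbp1-CreERT2*, in which an *Rlbp1* promoter active in Müller glia drives tamoxifen-dependent Cre, and the reporter *R26-CAG-LoxP-mTFP1*, and tamoxifen was given at P4 to every mouse, with harvest at P14. The 2 control mice, numbers 7984 and 3911, were Raxflox/WT, so that Cre could remove 1 *Rax* allele in them too, and the 2 *Rax* iCKO mice, numbers 7983 and 3914, were Raxflox/flox. Whether mice of neighbouring numbers were littermates is not given in the sources used here.

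The files hold FPKM, the fragments on a gene scaled to the length of its exons and to the mapped fragments of the library. Steps in the low values put the depth at 9280000 to 12730000 mapped reads per library. *Rax* itself was read at 189 FPKM in control 7984, 181 FPKM in control 3911, 111 FPKM in *Rax* iCKO mouse 7983 and 98.4 FPKM in *Rax* iCKO mouse 3914, so its RNA was lower without being lost. All 15 Müller glial markers on a list of such genes were above the level set for testing, with a summed FPKM of 13703 to 17349 in controls and 11811 to 11857 in *Rax* iCKO cells. Of these markers 14 had a log2 difference under 0, 5 had both *Rax* iCKO libraries below both controls, and the median was -0.32. Over all tested genes 50.8% were under 0, 14.1% were below both controls and 15.4% were above them. The sort also held RNA of other retinal cells. The 10 rod markers summed to 1985 and 1973 FPKM in controls 7984 and 3911 and to 1370 and 1228 FPKM in the *Rax* iCKO mice 7983 and 3914, all 10 had a log2 difference under 0, 8 had both *Rax* iCKO libraries below both controls, where 14.1% of all genes did, and the median was -0.63. The 10 bipolar cell markers summed to 5223 and 11826 FPKM in controls against 7114 and 9921 FPKM, with 9 above 0, 5 above both controls in both *Rax* iCKO libraries, where 15.4% of all genes were, and a median of 0.27. The bipolar sums overlapped between groups, none of the 6 cone and 4 amacrine markers tested lay apart, and limma called no marker on any of these lists at an adjusted p under 0.05, with 4 rod markers and 1 bipolar marker at an unadjusted p under 0.05. In bulk RNA of this kind, fewer cells of a type and less RNA per cell cannot be told apart. *Xist* was at 21.2 to 24.5 FPKM in the controls and at 0.0119 FPKM or less in both *Rax* iCKO libraries, and *Eif2s3y*, a Y-linked gene, was above 0 in mouse 7983 only. The part of these cell marker and sex-linked differences in the C/EBP values was not tested.

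The promoters are shown for the 3 expressed members that had an entry in the promoter table, *Cebpb*, *Cebpg* and *Ddit3*, because these had different values in the comparison. Each is the 250 bases before the RefSeq start on GRCm38.p6, written 5′ to 3′, and 4 of the 6 members had an entry. Capitals mark matches to the motifs named after them, GC boxes left in lower case.
*Cebpb* (chr2:167688665-167688914, + strand): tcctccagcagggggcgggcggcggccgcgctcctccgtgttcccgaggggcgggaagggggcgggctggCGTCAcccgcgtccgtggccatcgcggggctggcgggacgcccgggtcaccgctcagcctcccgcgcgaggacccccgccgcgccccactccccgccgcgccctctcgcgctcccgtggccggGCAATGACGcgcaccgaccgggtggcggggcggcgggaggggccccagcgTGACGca
*Cebpg* (chr7:35056567-35056816, - strand): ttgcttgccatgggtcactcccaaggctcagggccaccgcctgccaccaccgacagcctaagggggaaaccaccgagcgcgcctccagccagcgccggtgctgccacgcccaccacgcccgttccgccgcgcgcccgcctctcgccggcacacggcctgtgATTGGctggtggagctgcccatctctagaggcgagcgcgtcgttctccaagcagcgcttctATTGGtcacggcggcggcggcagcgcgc
*Ddit3* (chr10:127290543-127290792, + strand): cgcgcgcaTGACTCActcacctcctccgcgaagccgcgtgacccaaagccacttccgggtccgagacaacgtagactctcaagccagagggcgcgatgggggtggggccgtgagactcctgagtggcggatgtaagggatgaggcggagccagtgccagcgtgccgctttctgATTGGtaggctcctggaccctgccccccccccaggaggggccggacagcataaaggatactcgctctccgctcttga

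The *Cebpb* sequence is GC-rich at 81.6%, above 99.3% of the 32851 promoters in the table, and held 5 matches to the GC box GGGCGG on either strand, a motif present in 32.7% of promoters. It held 3 matches to the CREB and ATF core TGACG, present in 17.8% of promoters. They lie 180 to 176, 53 to 49 and 7 to 3 bases before the start. A single match to the C/EBP core GCAAT, present in 23.1% of promoters, lies 57 to 53 bases before the start and shares 1 base with the middle TGACG, so these 2 matches stand as 1 run of capitals. The *Cebpg* sequence held 2 CCAAT boxes, at 89 to 85 and 28 to 24 bases before the start, and the *Ddit3* sequence held 1, at 77 to 73 bases, all on the opposite strand and so printed as ATTGG. The motif CCAAT is present in 33.8% of promoters. The *Ddit3* sequence also held the AP-1 motif TGANTCA, as TGACTCA 242 to 236 bases before the start, which 6.7% of promoters hold. The *Cebpa* promoter, not printed, held 1 TATA box, TATAA, a motif of 22.8% of promoters.

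None of the 4 promoters held the homeodomain core TAATT, the letters searched for Rax, which 25% of all promoters hold. The 4 windows were at 64.8% to 81.6% GC, against a median of 52.4% over all promoters. That share is therefore not a like background for a motif of only A and T. *Cebpd* and *Cebpe* had no entry, so their promoters were not searched. None held the STAT motif TTCNNNGAA (7.0% of promoters), the full C/EBP palindrome TTGNNCAA (5.6%) or the C/EBP-ATF motif TGATGNAA (3.5%). All motifs were searched on both strands. A match is only a run of letters in this window, and a missing match says nothing of sites elsewhere.

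*Cebpd* encodes C/EBPδ, which is low in resting cells and rises early after cytokine stimulation. It is a gene of 1 exon at chr16:15887286-15889545 on the plus strand (RefSeq, GRCm38). Its level was 23.2 FPKM in control mouse 7984 and 30.6 FPKM in control mouse 3911, against 11.0 FPKM in *Rax* iCKO mouse 7983 and 9.80 FPKM in *Rax* iCKO mouse 3914. Both *Rax* iCKO libraries were below both controls. The values correspond to whole numbers of reads, 608 and 586 in controls and 213 and 188 in *Rax* iCKO libraries. Exact 95% Poisson intervals, which cover counting error only, ran from 21.4 to 25.1 and 28.2 to 33.2 FPKM in controls and from 9.53 to 12.5 and 8.44 to 11.3 FPKM in *Rax* iCKO libraries, with no overlap between groups.

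The mean *Cebpd* level was 26.9 ± 5.28 FPKM (SD, n = 2) in controls and 10.4 ± 0.818 FPKM (SD, n = 2) in *Rax* iCKO cells, or 61.5% less. On the log2(FPKM + 1) scale the difference was -1.28 with a standard error of 0.24 from the fit over all genes. Mouse 7983 minus mouse 7984 gave -1.02, mouse 3914 minus mouse 3911 gave -1.55, whereas the controls differed from each other by 0.39 and the *Rax* iCKO libraries by 0.15 in size. Over the 12363 tested genes, those averaging 1 FPKM or more, 0.30% had a lower log2 fold change. *Cebpd* was chosen with this comparison known, so nothing is read from that share or from the differences above. The rod and Müller glial markers were lower in the same libraries, with medians of -0.63 and -0.32, and their part in the *Cebpd* values was not tested. In rank, *Cebpd* stood above 82.5% and 85.8% of all genes in the control libraries and above 72.1% and 71.4% in the *Rax* iCKO libraries.

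*Cebpb* encodes C/EBPβ, which is made as activating and inhibitory isoforms from 1 RNA, so the RNA level does not tell the isoforms apart. It is likewise a gene of 1 exon, at chr2:167688915-167690432 on the plus strand (RefSeq, GRCm38). Its level was 5.31 FPKM in control 7984, 4.09 FPKM in control 3911, 3.62 FPKM in *Rax* iCKO mouse 7983 and 1.06 FPKM in *Rax* iCKO mouse 3914. The groups did not overlap, but mouse 7983 lay close to control mouse 3911 and far from the other *Rax* iCKO mouse. The reads behind these values were 89, 50, 45 and 13. The interval of mouse 7983, 2.64 to 4.84 FPKM, overlapped that of control mouse 3911, 3.03 to 5.39 FPKM, and only the interval of mouse 3914, 0.564 to 1.81 FPKM, lay apart.

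The mean *Cebpb* level was 4.70 ± 0.86 FPKM (SD, n = 2) in controls and 2.34 ± 1.81 FPKM (SD, n = 2) in *Rax* iCKO cells, with a log2 difference of -0.88 and a standard error of 0.43. Mouse 7983 minus mouse 7984 gave -0.45 and mouse 3914 minus mouse 3911 gave -1.31. The gap of 1.17 in size between the *Rax* iCKO libraries exceeded the mean difference between the groups. Without mouse 3914 the log2 difference was -0.29, and without mouse 7983 it was -1.46, so the size rests on which *Rax* iCKO mouse is used. The libraries with more and less *Cebpb* also differed in the RNA of immune cells. The 16 microglia and macrophage markers summed to 99 and 110 FPKM in controls 7984 and 3911, to 159 FPKM in mouse 7983 and to 30.4 FPKM in mouse 3914, where *Cebpb* was lowest. Of these markers, 15 could be tested and none lay above both controls or below both controls in both *Rax* iCKO libraries, where 15.4% and 14.1% of all genes did. *Cd68* was at 0.175 FPKM and *Csf1r* at 0.467 FPKM in mouse 3914, against 5.53 and 10.8 FPKM in mouse 7983. The part of these cells in the *Cebpb* values was not tested.

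**Figure D1:**
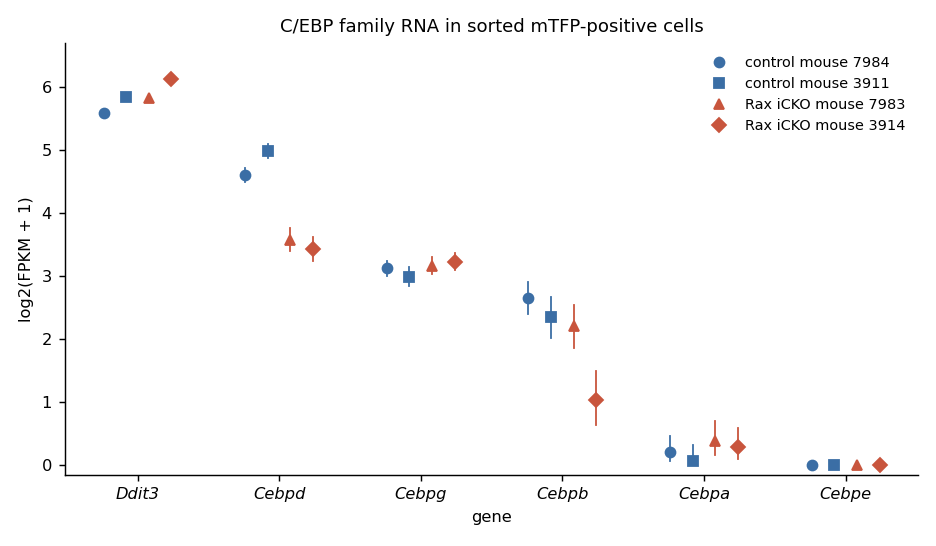
The RNA level of the 6 C/EBP genes in each library, as log2(FPKM + 1) on the vertical axis and by gene on the horizontal axis. Blue symbols are the 2 controls and red symbols the 2 *Rax* iCKO libraries, and vertical lines are exact 95% Poisson intervals where whole reads could be recovered. The red symbols lie well below the blue ones for *Cebpd*, *Cebpb* is low mainly in mouse 3914, and *Cebpg* and *Ddit3* differ little.

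*Cebpg* encodes C/EBPγ, which pairs with other C/EBP proteins and with ATF4. It has 2 exons and lies at chr7:35046422-35056566 on the minus strand (RefSeq, GRCm38). Its level was 7.71 and 6.96 FPKM in controls 7984 and 3911 and 7.97 and 8.39 FPKM in the *Rax* iCKO mice 7983 and 3914, from 442, 291, 339 and 352 reads. Both *Rax* iCKO libraries were above both controls, but the interval of mouse 7983, 7.15 to 8.87 FPKM, took in the value of control 7984. The means were 7.33 ± 0.528 and 8.18 ± 0.294 FPKM (SD, n = 2 each), with a log2 difference of 0.14 and a standard error of 0.23.

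*Ddit3*, the CHOP gene, was the most abundant member. It has 4 exons and lies at chr10:127290793-127296291 on the plus strand (RefSeq, GRCm38). Its level was 46.8 and 56.3 FPKM in controls 7984 and 3911 and 55.7 and 69.1 FPKM in the *Rax* iCKO mice 7983 and 3914. The groups overlapped, since mouse 7983 was just below control 3911. The means were 51.5 ± 6.65 and 62.4 ± 9.50 FPKM (SD, n = 2 each), with a log2 difference of 0.27 and a standard error of 0.22. The values of *Ddit3* did not resolve into whole reads, so no counting interval is given. For *Cebpg* the standard error exceeded the difference, and for *Ddit3* it was nearly as large, which is a description and not a test. Mouse 7983 minus mouse 7984 gave 0.04 for *Cebpg* and 0.24 for *Ddit3*, and mouse 3914 minus mouse 3911 gave 0.24 and 0.29. The controls differed by 0.13 and 0.26 in size, and the *Rax* iCKO libraries by 0.07 and 0.31.

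*Cebpa*, a master gene of fat and myeloid cell differentiation, was at 0.161 and 0.0442 FPKM in controls 7984 and 3911 and at 0.304 and 0.220 FPKM in the *Rax* iCKO mice 7983 and 3914. These values rest on 5, 1, 7 and 5 reads, their intervals overlap, and a mean of under 1 FPKM kept the gene out of the fit. It is a gene of 1 exon at chr7:35119293-35121928 on the plus strand. *Cebpe*, which acts in late granulocyte development, lies at chr14:54710363-54712174 on the minus strand and had no reads in any library. At this depth 3 reads, the number a count of 0 allows, equal 0.226 to 0.311 FPKM for a gene of its length. *S100a8*, a granulocyte gene, was at 15.7 FPKM in control 7984, at 0.556 FPKM in mouse 7983 and listed at 0 in the other libraries.

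Of the 6 members, 4 had a mean of at least 1 FPKM. Of these 4, *Cebpd* and *Cebpb* had both *Rax* iCKO libraries below both controls and means more than 2-fold apart, as did 0.704% of all genes tested, and *Cebpg* had both *Rax* iCKO libraries above both controls, as did 15.4% of genes. *Cebpb* passed at a ratio of 0.498, close to the limit, and did not pass with 1 added to each mean FPKM. No tested member was more than 2-fold above both controls, as 0.599% of genes were. The members were chosen on this comparison, so nothing is read from these counts. The order of levels per length was *Ddit3*, *Cebpd*, *Cebpg*, *Cebpb*, *Cebpa* and *Cebpe* in both controls and in *Rax* iCKO mice 7983 and 3914. *Cebpd* and *Cebpg* were far apart in the controls and nearer in the *Rax* iCKO libraries. In mouse 3914 the interval of *Cebpd*, 8.44 to 11.3 FPKM, overlapped that of *Cebpg*, 7.53 to 9.31 FPKM, and in mouse 7983 the intervals, 9.53 to 12.5 and 7.15 to 8.87 FPKM, were apart. *Cebpg* and *Cebpb* had intervals apart in every library. The family's summed FPKM was 83.2 and 98.0 in controls and 78.5 and 88.6 in *Rax* iCKO mice 7983 and 3914, so the groups overlapped in the sum. The shares of the sum restate the members' own values, and that of *Ddit3* moves when *Cebpd* does. *Cebpd* gave 27.9% and 31.3% of the sum in controls and 13.9% and 11.1% in *Rax* iCKO mice 7983 and 3914, and *Ddit3* gave 56.3% and 57.4% in controls and 70.9% and 78.0% in *Rax* iCKO mice. The share of *Cebpb*, 6.4% and 4.2% in controls and 4.6% and 1.2% in *Rax* iCKO mice, overlapped. The ratio of *Ddit3* to *Cebpd* was 2.02 and 1.84 in controls and 5.08 and 7.05 in *Rax* iCKO mice. The ratio of *Cebpd* to *Cebpb*, 4.37 and 7.49 in controls and 3.03 and 9.25 in *Rax* iCKO mice, did not separate the groups.

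Several properties of the genes that the choice did not use were also compared. *Cebpd* and *Cebpb* are genes of 1 exon with a GC content of 53.7% and 67.2%, above 67.7% and 99.8% of genes. Among 280 tested genes of 1 exon the median log2 difference was -0.03, and among 3676 genes at least as GC-rich as *Cebpd* it was -0.01, the same as over 11375 coding genes. Each of the expressed members except *Cebpg* shares exonic bases with a coding gene on the other strand, and the library kit named in the labels does not mark strand. *Spidr*, which shares 322 bases with *Cebpd*, was at 5.07 and 3.32 FPKM in controls 7984 and 3911 and at 3.09 and 2.61 FPKM in the *Rax* iCKO mice 7983 and 3914, below both controls as *Cebpd* was. *Tmem189*, which shares 312 bases with *Cebpb*, was read at 42.1 and 27.8 FPKM in controls 7984 and 3911 and at 34.5 and 32.6 FPKM in the *Rax* iCKO mice 7983 and 3914, so the split of its reads from those of *Cebpb* is uncertain. *Mars*, at 39.7 to 57.6 FPKM, shares 68 bases with *Ddit3* and was highest in mouse 3914, as *Ddit3* was.

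The genes whose profile over the 4 libraries lay nearest to that of *Cebpd* were *Optc*, *Ly6g6d*, *Ifitm2*, *Ccdc122* and *Itm2a*, by the Euclidean distance of log2(FPKM + 1) values after each gene's mean was taken off. *Optc*, which encodes a small leucine-rich proteoglycan of the eye, was nearest at a distance of 0.11, with 3.51 and 4.42 FPKM in controls against 1.07 and 0.994 FPKM in mice 7983 and 3914. *Ifitm2*, an interferon-induced membrane protein gene, was at 46.1 and 49.9 FPKM in controls and 19.9 FPKM in both *Rax* iCKO mice, at a distance of 0.23. *Itm2a*, a membrane protein gene, was at 109 and 132 FPKM in controls and 63.6 and 60.4 FPKM in *Rax* iCKO mice. *Cebpb* was only the 704th gene in this order among 12362, at a distance of 0.96.

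The genes nearest to *Cebpb* were *Fam114a1* at a distance of 0.04, *Isoc2b* and *Tph2* at 0.19, *H1fx* at 0.25 and *Hps1* at 0.26. *Fam114a1* was at 8.65 and 6.66 FPKM in controls and at 6.12 and 2.22 FPKM in the *Rax* iCKO mice 7983 and 3914, the same stepwise order as *Cebpb*. *Cebpd* was the 1573rd gene in this order.

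**Figure D2:**
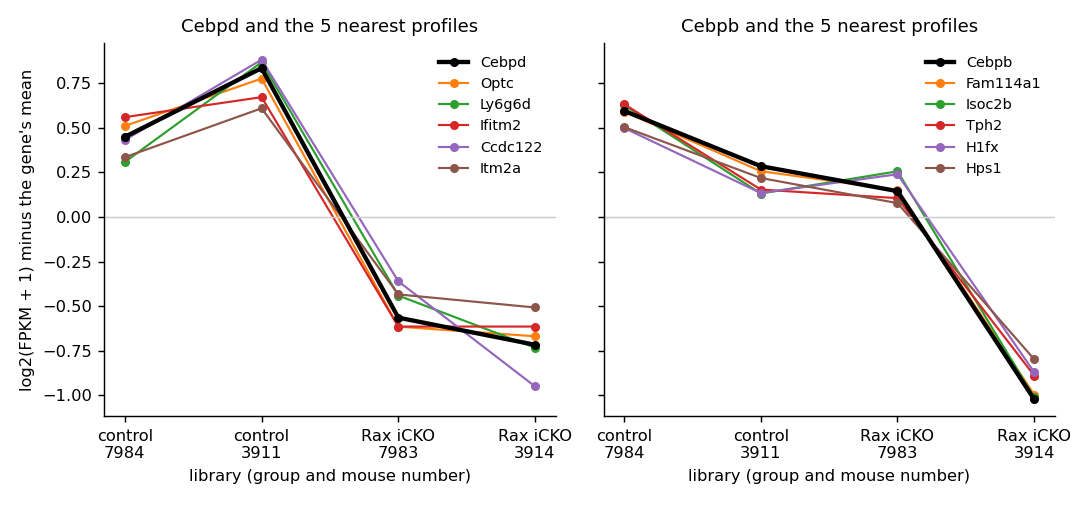
The profiles of *Cebpd* (left) and *Cebpb* (right), in black, and of the 5 genes nearest to each, in colour, over the 4 libraries on the horizontal axis. The vertical axis is log2(FPKM + 1) minus the gene's own mean, and lines join the libraries only to guide the eye. The *Cebpd* group separates the controls from both *Rax* iCKO mice, and the *Cebpb* group is set mainly by the low value of mouse 3914.

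The genes that C/EBP proteins pair with, respond to and act on were described by lists, each set beside all 12363 tested genes, whose median log2 difference was -0.004 and of which 50.8% were below 0. With limma and an adjusted p under 0.05 over all tested genes, 0.0243% of genes were called, 0.00809% higher and 0.0162% lower in *Rax* iCKO libraries, and no gene of any of the 9 lists was among them. Unadjusted p-values under 0.05 are given as counts for that reason. Over all tested genes 2.86% had one, 1.6% with lower and the rest with higher values in *Rax* iCKO libraries, and those counted in the lists were all on the lower side. The lists share genes, so they are not separate results. *Fos* and *Junb* are on the bZIP, STAT3 and immediate early lists, and *Junb*, with an unadjusted p under 0.05, is counted in each.

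Of the 21 bZIP partners, 15 were tested. A log2 difference under 0 was found in 10, 1 had an unadjusted p under 0.05, and the median was -0.17. Both *Rax* iCKO libraries were below both controls in 4 and above them in none, where 14.1% of all genes were below. The median was -0.04 with quantile normalization and -0.01 without mouse 3914. *Junb*, an AP-1 subunit, was at 244 and 232 FPKM in controls 7984 and 3911 and at 170 and 131 FPKM in the *Rax* iCKO mice 7983 and 3914, a log2 difference of -0.67 with a standard error of 0.24. *Nfe2l2*, the NRF2 gene, was at 15.6 and 12.2 FPKM against 11.1 and 7.47 FPKM, and *Fos* at 1269 and 964 FPKM against 929 and 874 FPKM. *Atf4*, a partner of C/EBPγ and CHOP, was at 75.7 and 100 FPKM against 76.2 and 113 FPKM in the same order, and was added to the named genes after its values were seen.

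Regulators of C/EBP RNA and protein were listed under 20 symbols, with *Rfwd2* and *Cop1* naming 1 gene. Of these symbols 19 were in the files and 18 were tested, 12 with a log2 difference above 0, 0 with an unadjusted p under 0.05 and a median of 0.13. Both *Rax* iCKO libraries were below both controls in 2 and above them in 2, where 14.1% and 15.4% of all genes were. The median was -0.02 without control mouse 3911 and 0.29 without control mouse 7984. *Stat3*, which induces *Cebpd* and *Cebpb* in other cells, was at 30.5 and 25.8 FPKM in controls and 32.2 and 32.5 FPKM in the *Rax* iCKO mice 7983 and 3914. Its log2 difference was 0.20 with a standard error of 0.21. *Celf1*, an RNA-binding protein gene, was also above both controls, with a log2 difference of 0.41. *Id1* and *Id2*, which encode inhibitors of bHLH factors, were at 131 and 355 FPKM in control 7984, 140 and 321 FPKM in control 3911, 92.9 and 251 FPKM in mouse 7983 and 99.3 and 222 FPKM in mouse 3914.

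Of 26 STAT3 target genes, 19 were tested, 14 with a log2 difference under 0, 3 with an unadjusted p under 0.05 and a median of -0.21. Both *Rax* iCKO libraries were below both controls in 6 and above them in 2, where 14.1% and 15.4% of all genes were. *Socs3*, the feedback inhibitor of cytokine receptors that signal through STAT3, was at 29.1 and 28.6 FPKM in controls and 9.27 and 6.80 FPKM in the *Rax* iCKO mice 7983 and 3914. Its log2 difference was -1.74 with a standard error of 0.24, and the adjusted p in limma was 0.484. In limma with a replicate block, a pairing assumed from the mouse numbers alone, it was 0.000409. That fit is given with the immediate early genes below. *Ccnd1*, a D-type cyclin gene, was at 16.5 and 11.8 FPKM against 8.19 and 6.41 FPKM. *Hif1a* was at 117 and 149 FPKM against 164 and 160 FPKM. *Socs3* and *Ccnd1*, like *Cebpd*, were lower in both *Rax* iCKO libraries, while *Stat3* and *Hif1a* were higher in both. The list median depended on control mouse 7984, and was -0.04 without it and -0.43 without control mouse 3911.

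Of 42 acute phase and inflammatory C/EBP targets, 13 were listed at 0 in every library and 8 were tested, 6 with a log2 difference under 0, 2 with an unadjusted p under 0.05 and a median of -0.13. Both *Rax* iCKO libraries were below both controls in 4 and above them in none, where 14.1% and 15.4% of all genes were. The median was 0.07 without control mouse 3911 and -0.43 without control mouse 7984. *Cp*, which encodes ceruloplasmin, was at 221 and 204 FPKM in controls and 144 and 134 FPKM in the *Rax* iCKO mice 7983 and 3914, and *Tnfaip6* was at 13.6 and 18.8 FPKM against 10.3 and 8.51 FPKM. *Ptx3*, a pentraxin gene, was at 8.16 and 8.26 FPKM against 7.14 and 5.61 FPKM. *Il6*, *Saa1* and *Saa2*, common inflammatory C/EBP targets, were among those listed at 0. *Lcn2*, a target of C/EBPδ and C/EBPβ, was at 1.33 and 1.16 FPKM in controls and listed at 0 in both *Rax* iCKO libraries, and it was named after its values were seen. Its mean of 0.621 FPKM kept it out of the fit. It is also a marker of neutrophils, whose part in these values was not tested.

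Among adipocyte and liver targets 11 of 29 were tested, 6 of them under 0, with 1 unadjusted p under 0.05 and a median of -0.01 that turned to 0.08 without control mouse 7984. In 1 gene both *Rax* iCKO libraries were below both controls and in 1 above, where 14.1% and 15.4% of all genes were. The lipid droplet genes *Plin2* and *Plin1* differed in direction, *Plin2* at 28.1 and 22.7 FPKM in controls and 15.6 and 13.8 FPKM in the *Rax* iCKO mice 7983 and 3914, and *Plin1* at 0.378 and 0.779 FPKM against 1.15 and 2.2 FPKM. Among granulocyte genes only 5 of 21 were tested, none with an unadjusted p under 0.05, the groups overlapped in each, and the median was -0.40. It turned to 0.32 without control mouse 7984 and was -1.64 without mouse 7983. Only 1 gene of the list, *Lyz2*, averaged 5 FPKM or more, with a log2 difference of 0.42. These lists hold the genes tied to *Cebpa* and *Cebpe*, the members that were close to or at 0.

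Genes of the integrated stress response, where CHOP acts, were listed under 39 symbols, with *Ero1l* and *Ero1a* naming 1 gene, and 34 were tested. Of these 20 had a log2 difference under 0, 1 had an unadjusted p under 0.05, and the median was -0.07, with 5 above and 6 below both controls in both *Rax* iCKO libraries, shares near the 15.4% and 14.1% of all genes. The median was 0.09 without mouse 7983 and -0.17 without mouse 3914. *Chac1*, a direct target of ATF4 and CHOP, was at 1.09 and 1.65 FPKM in controls and 1.70 and 3.76 FPKM in the *Rax* iCKO mice 7983 and 3914. *Vldlr* was at 7.74 and 7.38 FPKM against 9.09 and 11.3 FPKM, and *Eif2ak2*, the PKR gene, at 1.39 and 1.46 FPKM against 2.36 and 1.61 FPKM. The serine synthesis genes *Psph* and *Psat1* went the other way, with log2 differences of -0.56 and -0.51, as did *Ddit4* with -0.52.

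The 20 genes of the unfolded protein response, which leads to *Ddit3* through PERK and ATF6, were all tested. They had 14 values under 0, no unadjusted p under 0.05 and a median of -0.06, which turned to 0.05 with quantile normalization and to 0.01 without mouse 3914. Both *Rax* iCKO libraries were below both controls in 6 and above them in 1, where 14.1% and 15.4% of all genes were. *Sdf2l1*, *Pdia4* and *Pdia6*, which encode folding proteins of the endoplasmic reticulum, had log2 differences of -0.39, -0.37 and -0.32, and *Sel1l*, which acts in the export of misfolded proteins, had 0.37.

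Immediate early genes, which turn on within minutes of a stimulus and include partners and inducers of C/EBP proteins, stood on 1 side. Of 20 tested among 30 listed, 19 had a log2 difference under 0, 15 had both *Rax* iCKO libraries below both controls and none above, and the median was -0.49. Over all genes 14.1% were below both controls. An unadjusted p under 0.05 was found in 7, beside 1.6% of all genes on the lower side. *Ier3*, *Egr2* and *Zfp36* were the lowest, with log2 differences of -1.14, -1.04 and -1.01. *Zfp36*, which encodes an RNA-destabilising protein, was at 67.6 and 55.8 FPKM in controls and 37.5 and 24.0 FPKM in the *Rax* iCKO mice 7983 and 3914. With the runs of mouse numbers as a replicate block, limma called *Socs3*, *Ier3* and *Zfp36*, with adjusted p-values of 0.000409, 0.0165 and 0.0113. That fit called 71 genes, or 0.574% of those tested, against 3 without the block, and the pairing is assumed from the mouse numbers alone. The median was -0.27 without control mouse 7984 and -0.71 without control mouse 3911. The list's summed FPKM was 5344 and 4278 in controls 7984 and 3911 and 3720 and 3219 in the *Rax* iCKO mice 7983 and 3914. *Cebpb* and the rod marker sum also had this order, as did other list sums, such as those of STAT3 targets and unfolded protein response genes. *Cebpd* was highest in control 3911. The part of the rod markers in these values was not tested. These genes can also respond to the dissociation of tissue, and the part of such a response in the *Cebpb* and *Cebpd* values was not tested.

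**Figure D3:**
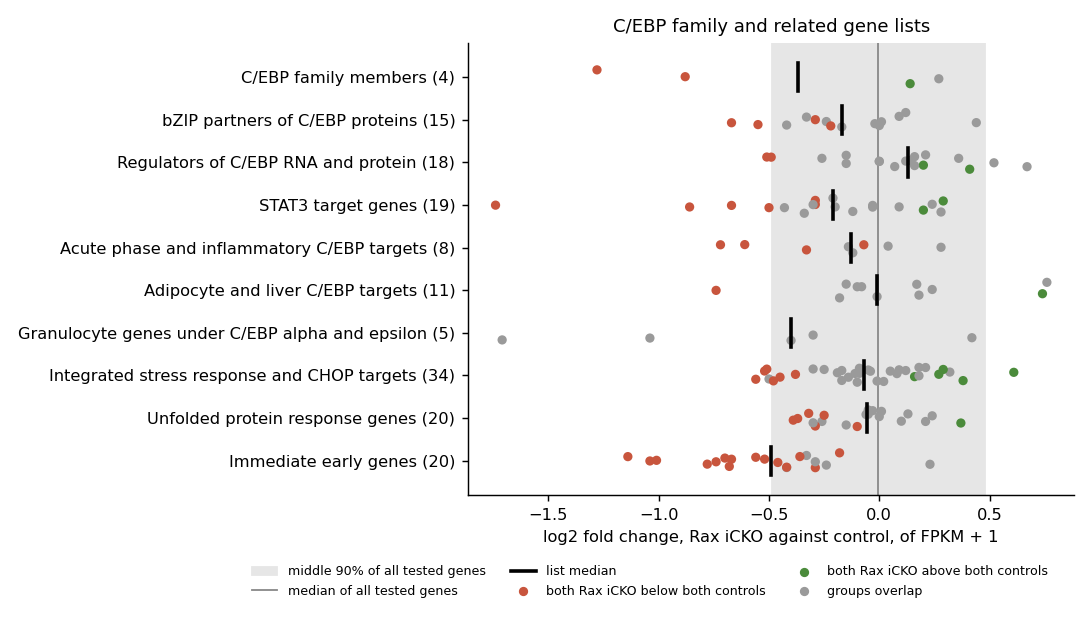
Log2 differences of FPKM + 1 between *Rax* iCKO and control libraries, on the horizontal axis, for the 4 tested C/EBP genes in the top row and for the 9 lists below it, with the number of tested genes in brackets. Each point is a gene, red where both *Rax* iCKO libraries were below both controls, green where both were above and grey where the groups overlapped, and black bars are list medians. The immediate early genes lie almost wholly below 0, with a median of -0.49.

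**Figure D4:**
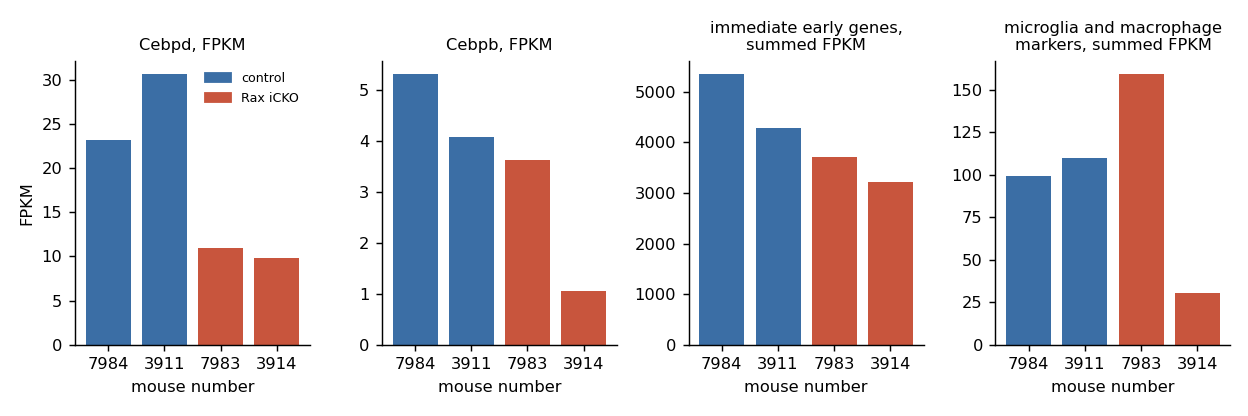
FPKM of *Cebpd* and *Cebpb* and the summed FPKM of immediate early genes and of microglia and macrophage markers, by mouse number, with controls in blue and *Rax* iCKO mice in red. Each bar is 1 library, so there are no error bars. *Cebpb* and the immediate early sum have the same library order, as do the rod marker sum and other list sums, which are not plotted. The microglia and macrophage marker sum is highest in mouse 7983 and lowest in mouse 3914, and *Cebpd* is low in both *Rax* iCKO mice.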

How the data were processed

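RNA-seq libraries of sorted mTFP-positive retinal cells from 4 mice were used, grouped by the genotype in the labels. Single-end reads were aligned to mm10 by the authors, and the deposited files give FPKM for each gene. The submitters' processing notes name TopHat2 2.1.1, Bowtie2 2.2.8, SAMtools 0.1.18 and Cuffdiff 2.2.1, and the paper's methods give other versions of the first 3. The methods name TRIzol LS for the RNA and the labels a spin-column kit with full-length cDNA amplification, so this step is not settled here.

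FPKM, which scale each library to its own mapped reads, were used as deposited. The test was limma 3.58.1 (R 4.3.3), with lmFit followed by eBayes using a variance trend, on log2(FPKM + 1). It covered 12363 genes, those averaging 1 FPKM or more, and p-values were adjusted by the Benjamini-Hochberg method. Fold changes on this scale understate those of low genes. With 2 mice per group, p-values rest on the spread between these mice, moderated toward a variance trend over all genes. Members, lists and tests were chosen with earlier results of these data known, and members have no test.

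Depth was estimated from the FPKM steps of 463 genes with 1 annotated transcript (quartiles 8630000 and 9440000 reads for mouse 7983). Whole reads of *Cebpa*, *Cebpb*, *Cebpd* and *Cebpg* were recovered with deviations under 0.02 reads at a length within 5% of the annotated one, with 200 bases taken off. Poisson intervals were computed in scipy 1.17.1. Annotation was GENCODE and RefSeq on GRCm38, where 23123 gene symbols matched RefSeq, and promoter sequences were from RefSeq GRCm38.p6.

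From each list, the 3 highest and 3 lowest log2 differences among genes whose groups did not overlap were named, with any called gene, and the 5 profiles nearest to *Cebpd* and to *Cebpb*. Other genes were named after their values were seen. The alternatives were a pseudocount of 0.1, testing every gene, testing those averaging 5 FPKM or more, quantile normalization, scaling to equal medians, dropping the variance trend, a replicate block by run of mouse numbers, 1 added to each mean FPKM, and leaving out each mouse. The steps were tested on simulated data.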

Additional observations from a re-analysis of the deposited data

How the results depend on the processing

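The log2 differences of *Cebpd*, *Cebpb*, *Cebpg* and *Ddit3* kept their sign in all 43 alternatives computed. With all 4 mice they moved by less than 1 SD of the replicates. With 2 mice per group, leaving out 1 cannot move a value by over 1 SD, so that limit says nothing of stability there. Leaving out a mouse gave -1.48 to -1.09 for *Cebpd*, -1.46 to -0.29 for *Cebpb*, 0.08 to 0.21 for *Cebpg* and 0.11 to 0.42 for *Ddit3*. *Cebpb* had no value with a mean FPKM of at least 5. The list medians had 99 alternatives, of which 13 moved by more than 1 SD and 10 changed sign. The number of genes called by limma was 3 and became 0 with no filter (624 genes with an unadjusted p under 0.05), 0 with a mean FPKM of at least 5 (279 such genes), 6 with equal medians, 71 with the replicate block by run of mouse numbers and 15 to 20 without 1 mouse, where the lone library of a group was assumed to vary like the other group. The cause of these changes was not tested. The pairing rests on neighbouring mouse numbers only, and deviations within the 2 runs correlated at 0.50, too few pairs to settle it. Genes with groups apart and means more than 2-fold different numbered 74 higher and 87 lower, became 479 and 727 with no filter, since more genes were then counted, and 17 and 32 with 1 added to each mean FPKM. With 2 mice per group and 13 to 89 reads on *Cebpb*, its difference is known less well than that of *Cebpd*.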
